A study of Homo sapiens with 11 samples.

Results

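Cells take up iron through the transferrin receptor, reduce and release it in endosomes, store it in ferritin shells and export it through ferroportin. The 10 genes described here cover these steps: TFRC, STEAP3 and SLC11A2 (uptake), FTH1 and FTL (storage), HMOX1 and NCOA4 (release from heme and from ferritin), SLC40A1 (export), and ACO1 and IREB2, which encode the iron regulatory proteins. They were chosen by name, with no threshold on any value, and all 10 of 10 were found among the 58721 genes of the count table and passed the filter on low counts. The list was drawn up with results of these libraries known, so fitted values describe the members and support nothing about the list.

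All libraries came from the established human melanoma line A375 (genotype labelled WT in every group), so 1 cell line stands for all of them. The groups were 1 library of untreated parental cells, 5 of persister cells kept in 2 nM trametinib, an inhibitor of the MEK kinases, for 8 weeks, and 5 of cells taken 4 weeks after drug withdrawal (withdrawn cells). Each withdrawn culture carries the number of a persister culture. Whether the 5 cultures arose independently is not stated, so each p-value sets a difference against the scatter of these libraries, part of which may be technical. The single parental library was taken to vary like the others. All libraries share 1 estimate of scatter per gene in the main fit. Its withdrawn against parental p-values therefore also carry the scatter of persister libraries. For every member the SD of log2 CPM was larger among persister than among withdrawn libraries, in FTL for example 0.243 and 0.075. Values are CPM, the counts of a gene scaled to a common library size, given as mean ± SD with n = 5 for the persister and withdrawn groups. A gene rose or fell where edgeR's quasi-likelihood test, adjusted by the Benjamini-Hochberg method over the 23693 genes tested, gave a p under 0.05.

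Libraries held 56513920 to 82984566 counts. Of 12 melanoma markers 9 or 10 reached 1 CPM on average in each group, with summed levels of 1527 in parental, 690.04 to 1250 in persister and 1889 to 1966 CPM in withdrawn libraries. Single melanoma markers moved in both directions. SOX10 stood at 635 CPM in parental, 29.2 to 86.6 CPM in persister and 791 to 838 CPM in withdrawn libraries. DCT stood at 2.94, 229 to 740 and 16.4 to 64.1 CPM in the same groups. Macrophage markers summed to at most 7.63 CPM in any library, nearly all of it LYZ in parental and withdrawn cells, and VSIG4 was at 0 in all libraries. Erythroid markers summed to at most 1.40 CPM and hepatocyte markers to at most 9.46 CPM. Fibroblast markers summed to 19.7 CPM in parental, 84.0 to 386 CPM in persister and 38.1 to 51.7 CPM in withdrawn libraries. LUM alone ran from 32.6 to 292 CPM in persister libraries, and the markers did not move as one. PDGFRA was lower in persister libraries, at 0.450 to 2.03 CPM beside 3.64 CPM in parental cells. FAP stood at 0.902 CPM in parental, 16.1 to 42.7 CPM in persister and still 10.4 to 23.8 CPM in withdrawn libraries. The 27 genes of the cell cycle list averaged 7.00 log2 CPM in parental cells and 6.65 to 6.76 in withdrawn cells. In persister cultures 1 to 5 they averaged 5.46, 6.86, 6.47, 6.48 and 4.30, so cultures 1 and 5 stood lowest. Mitochondrially encoded genes took 8.88% and 9.28% of counts in these 2 cultures, 4.51% to 6.72% in the other persister cultures, and at most 3.70% in parental and withdrawn libraries. The part of these shifts in the results was not tested. In bulk RNA, fewer cells of one kind and less RNA per cell cannot be told apart.

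When iron is scarce, the iron regulatory proteins bind a short RNA hairpin, the iron-responsive element. In the 3′ UTR of TFRC such hairpins protect the mRNA, and in the 5′ UTR of ferritin and ferroportin mRNAs they block translation, so ferritin protein can change without its mRNA. Ferritin and heme oxygenase genes are also well known as targets of the stress-responsive factor NRF2 and of the repressor BACH1. The hairpins are shown because they mark members known to be under this control. Transcripts of GENCODE 29 were searched on the sense strand for CAGTGN loops in which the last base is not G. The loop had to sit on 5 paired bases above an unpaired C, with at least 3 of the next 5 positions paired. Such a window of 27 bases was found in a UTR of 34 of 19659 protein-coding genes (0.173%), among them 4 members. Capitals mark the loop.

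FTH1: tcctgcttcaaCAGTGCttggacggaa
FTL: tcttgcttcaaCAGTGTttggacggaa
SLC40A1: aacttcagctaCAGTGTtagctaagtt
TFRC site 1: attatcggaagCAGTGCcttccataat
TFRC site 2: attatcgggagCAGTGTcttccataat
TFRC site 3: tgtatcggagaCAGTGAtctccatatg
TFRC site 4: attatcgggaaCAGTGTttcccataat

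The FTH1 window lay in the 5′ UTR at chr11:61967575-61967601 (GRCh38, minus strand) and was present in 7 of its 8 coding transcripts. The FTL window lay in the 5′ UTR at chr19:48965336-48965362 (plus strand), starting at base 36 of the transcript, and shared 25 of 27 bases with that of FTH1. The SLC40A1 window lay in the 5′ UTR at chr2:189580662-189580688 (minus strand), in 1 of 5 coding transcripts. The 4 TFRC windows lay in the 3′ UTR on the minus strand, in 3 of 4 coding transcripts, at chr3:196050980-196051006, chr3:196050576-196050602, chr3:196050511-196050537 and chr3:196050464-196050490. The other 6 members held no window of this form in a UTR. That says only that these letters were not found, and nothing about other forms of the element.

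In persister cells 5 of the 10 genes rose against the parental library (HMOX1, FTH1, STEAP3, FTL and ACO1), IREB2 fell, and TFRC, SLC11A2, NCOA4 and SLC40A1 did not pass the test. Over all genes tested 31.2% were called in this comparison, 16.1% higher and 15.1% lower. After withdrawal 7 of the 10 fell against persister cells (the 5 that had risen, TFRC and SLC11A2), IREB2 rose, and NCOA4 and SLC40A1 did not pass, with 52.5% of all genes called, 24.5% higher and 28% lower. Against the parental library only TFRC differed in withdrawn cells, where it was lower. Of all genes tested 0.431% were called there, 0.312% higher and 0.118% lower. The median log2 fold change of the members was 1.22 for persister against parental, -1.38 for withdrawn against persister and 0.03 for withdrawn against parental cells, against 0.09, -0.03 and 0.05 over all genes. Persister libraries enter the first 2 comparisons alike, so the opposite signs of these are not independent of each other.

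**Figure D1:**
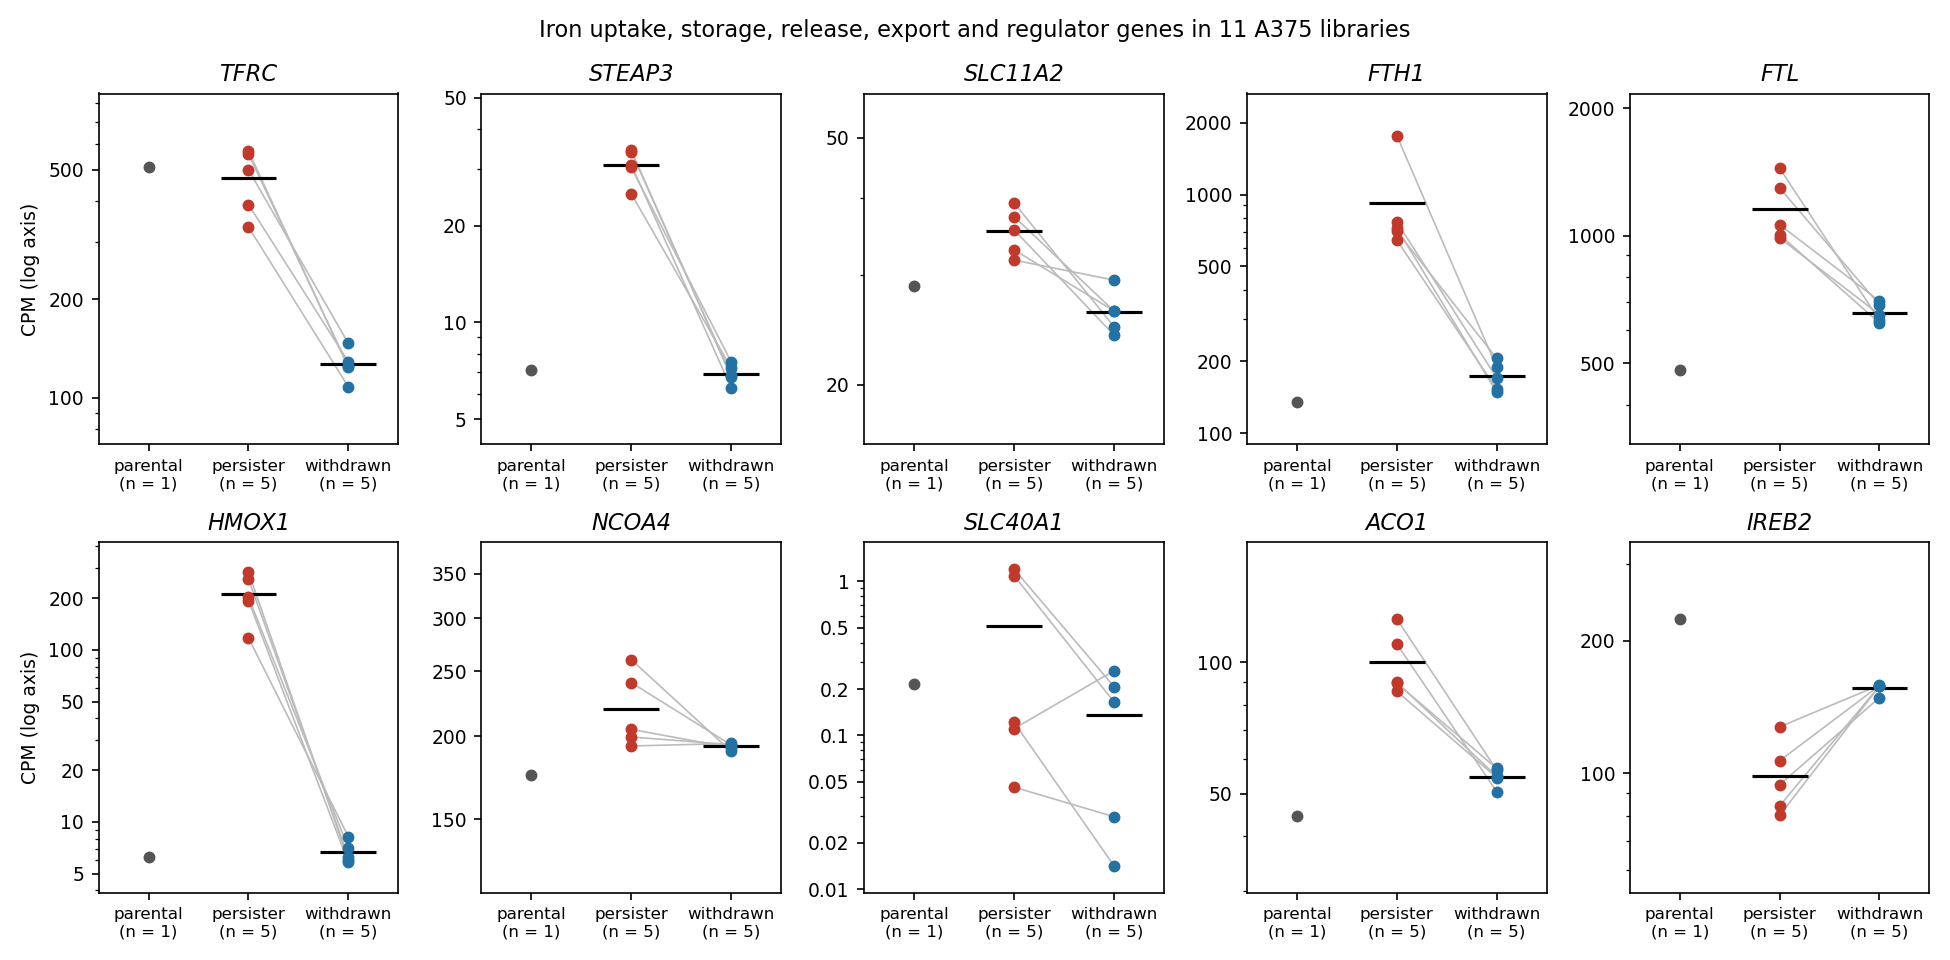
CPM (log axis, scaled separately for each gene) of the 10 iron genes in each library, with the mean of groups of 5 as a bar and lines joining persister and withdrawn cultures of the same number. HMOX1 and STEAP3 were high in persister libraries alone, while TFRC stood at 508 CPM in parental and 333 to 569.9 CPM in persister cells and at 108 to 147 CPM after withdrawal.

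**Figure D2:**
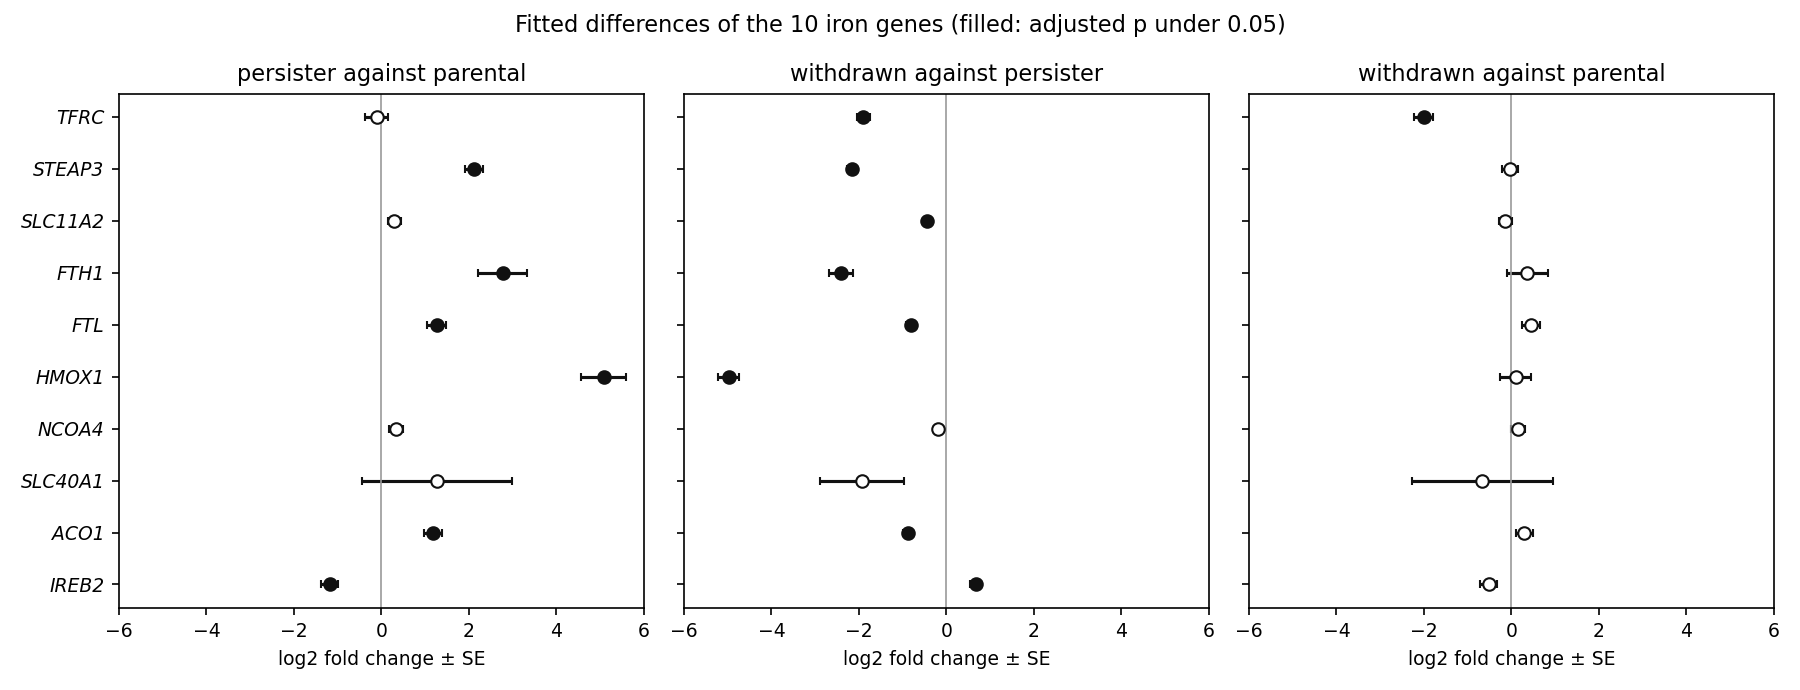
Fitted log2 fold change ± SE of the 10 genes in each comparison, with filled points for adjusted p under 0.05 (edgeR). In withdrawn against parental cells TFRC alone is filled, at -2.01.

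TFRC encodes transferrin receptor 1, which brings transferrin-bound iron into the cell and is known to be abundant in dividing cells (chromosome 3, 196027183 to 196082189). It stood at 508 CPM in the parental library and at 559, 569.9, 391, 499 and 333 CPM in persister cultures 1 to 5. In withdrawn cultures 1 to 5 it stood at 125, 124, 129, 147 and 108 CPM. The parental value thus lay within the persister range, and every withdrawn library lay below every persister library and below the parental one. Persister and parental cells did not differ by the test (log2 fold change -0.11 ± 0.26 (SE), adjusted p = 0.763). Withdrawn cells, at 126 ± 13.8 CPM, were 3.72-fold below persister cells at 470.4 ± 104 CPM (log2 fold change -1.90 ± 0.15, adjusted p = 2.06e-06). They were 4.02-fold below the parental library (log2 fold change -2.01 ± 0.23, adjusted p = 0.00330). No other member was called in that comparison, and this call held under every alternative run. Within pairs of the same number the fall was seen in 5 of 5 cultures, by 1.60 to 2.20 on the log2 CPM scale. The cell cycle list averaged 7.00 log2 CPM in the parental, 4.30 to 6.86 in persister and 6.65 to 6.76 in withdrawn libraries. Whether TFRC levels and cell division were linked here was not tested.

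STEAP3 encodes the ferrireductase that turns ferric into ferrous iron in the endosome (chromosome 2, 119223831 to 119265652). It stood at 7.11 CPM in parental cells, at 34.3, 30.9, 30.3, 33.95 and 25.1 CPM in persister cultures 1 to 5, and at 6.76, 6.27, 7.55, 6.87 and 7.22 CPM in the withdrawn cultures. Persister libraries formed a tight group far above both others, and the parental value lay within the withdrawn range. The rise was 4.35-fold (log2 fold change 2.12 ± 0.21, adjusted p = 3.93e-05) and the fall after withdrawal 4.46-fold (-2.16 ± 0.11, adjusted p = 7.42e-08). Withdrawn and parental cells differed by -0.04 ± 0.18 (adjusted p = 0.953). Of its exon bases 10.96% overlap STEAP3-AS1 on the opposite strand, and whether the counting used strand is not given in the sources used here. STEAP3-AS1 held 0 to 7 counts per library, at most 1.10% of the STEAP3 count. This does not show whether reads in the shared bases were left out of STEAP3.

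SLC11A2 encodes DMT1, which carries ferrous iron out of the endosome (chromosome 12, 50979401 to 51028566). It stood at 28.8 CPM in parental cells, 39.3, 35.6, 31.8, 33.0 and 37.3 CPM in persister cultures and 24.8, 24.1, 29.5, 26.3 and 26.3 CPM in withdrawn cultures. The parental value lay below all persister libraries, but the difference did not pass the test (log2 fold change 0.29 ± 0.15, adjusted p = 0.166). Withdrawn libraries lay below all persister libraries, by 1.35-fold (-0.43 ± 0.09, adjusted p = 0.00146). The 3 uptake genes thus fell together after withdrawal, by very different amounts, and STEAP3 alone of them had passed the test in persister cells.

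FTH1 encodes the ferritin heavy chain, which oxidises the iron that enters the ferritin shell (chromosome 11, 61959718 to 61967660). It stood at 135 CPM in parental cells and at 1767, 769, 703, 646 and 724 CPM in persister cultures 1 to 5. After withdrawal it stood at 189, 171, 206, 153 and 149 CPM. All persister libraries lay above all others, and culture 1 stood far above the other 4. The rise was 6.83-fold (log2 fold change 2.77 ± 0.57, adjusted p = 0.00420) and the fall after withdrawal 5.31-fold (-2.41 ± 0.28, adjusted p = 3.37e-05). The persister mean was 922 ± 475 CPM with culture 1 and 710.4 ± 51.0 CPM (n = 4) without it, and the log2 rise was 2.40 ± 0.22 without it (adjusted p = 4.36e-05). Withdrawn and parental cells differed by 0.36 ± 0.47 (adjusted p = 0.768).

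The FTH1 count is uncertain, because the gene has many near-identical processed copies. The table holds 25 annotated FTH1 pseudogenes, of which 15 had at least 10 counts, and their summed count was 6169 in the parental library beside 8828 for FTH1. This share, 41.1% of all heavy-chain counts in parental cells, was 43.2%, 46.0%, 44.9%, 43.5% and 46.9% in persister cultures 1 to 5, and 39.5% to 43.8% in withdrawn cultures. Of the 14 copies tested, 12 were called higher in persister than in parental cells and all 14 lower after withdrawal, with log2 fold changes from -2.74 to -2.30 beside -2.41 for FTH1 itself. Counts on the copies may hold FTH1 reads, so these calls are not independent of FTH1. With the copies added to FTH1 the rise was 2.86 ± 0.54 (adjusted p = 0.00272) and the fall -2.49 ± 0.27 (adjusted p = 1.77e-05). FTH1 also shares 62.4% of its exon bases with BEST1 on the opposite strand. BEST1 held 96 to 535 counts per library, at most 4.64% of the FTH1 count. That low count does not show whether reads in the shared bases were left out of FTH1, because the strand setting is not given.

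**Figure D3:**
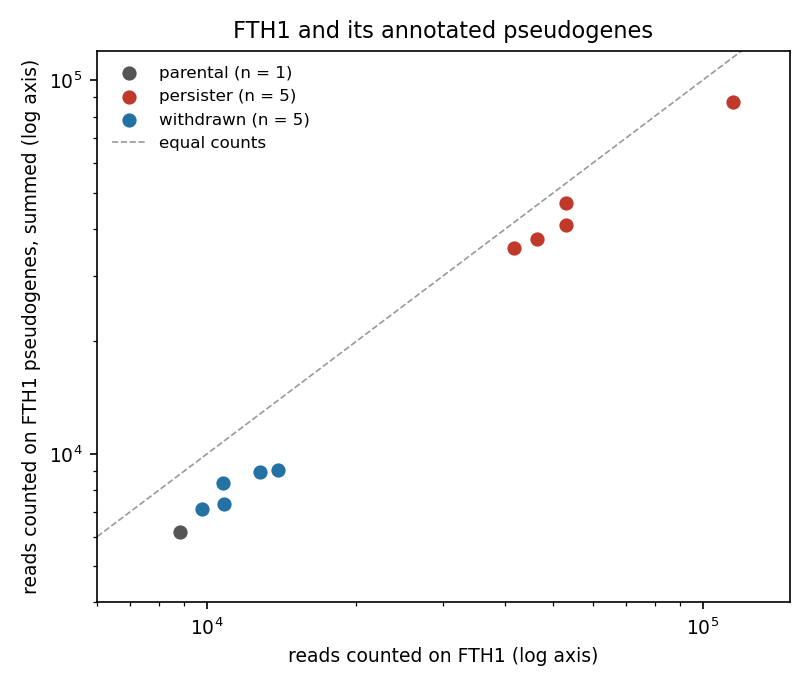
Reads counted on FTH1 (x, log axis) and on its annotated pseudogenes, summed (y, log axis), 1 point per library, with the line of equal counts dashed. Copies move with FTH1 and stay below it in all 11 libraries, at 39.5% to 46.9% of the sum.

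FTL encodes the ferritin light chain, which helps the stored iron to mineralise (chromosome 19, 48965301 to 48966878). It stood at 484 CPM in parental cells, at 1298, 989, 1063, 1007 and 1445 CPM in persister cultures and at 687, 652, 702, 623 and 632 CPM in withdrawn cultures. The 3 groups did not overlap: persister libraries were highest, withdrawn ones lay between, and the parental library was lowest. FTL rose 2.40-fold (log2 fold change 1.26 ± 0.22, adjusted p = 0.00153) and fell 1.76-fold after withdrawal (-0.82 ± 0.12, adjusted p = 1.21e-04). What remained above the parental level did not pass the test (0.45 ± 0.21, adjusted p = 0.331). It passed in a fit of the withdrawn and parental libraries alone (0.43, adjusted p = 0.00106) and without persister cultures 1 and 5 (0.45, adjusted p = 0.0252). Its 16 annotated pseudogenes held at most 0.369% of the light-chain counts.

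The 2 ferritin chains changed unequally. Within a library, the count of FTH1 was 0.279 times that of FTL in parental cells, 1.36, 0.777, 0.662, 0.641 and 0.501 times in persister cultures 1 to 5, and 0.235 to 0.293 times after withdrawal. Every persister library had more heavy chain reads per light chain read than any other library, and the parental ratio fell within the withdrawn range. Such ratios do not depend on how libraries are scaled. Those with FTH1 leave out its pseudogenes, which held 39.5% to 46.9% of heavy-chain counts. The count of TFRC was 3.77 times that of FTH1 in the parental library, 0.316 to 0.773 times in persister libraries and 0.626 to 0.958 times in withdrawn libraries. This ratio therefore did not go back to its parental value after withdrawal, when both genes had fallen. Against FTL, TFRC went from 1.05 in parental to 0.231 to 0.576 in persister and 0.171 to 0.236 in withdrawn libraries.

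**Figure D4:**
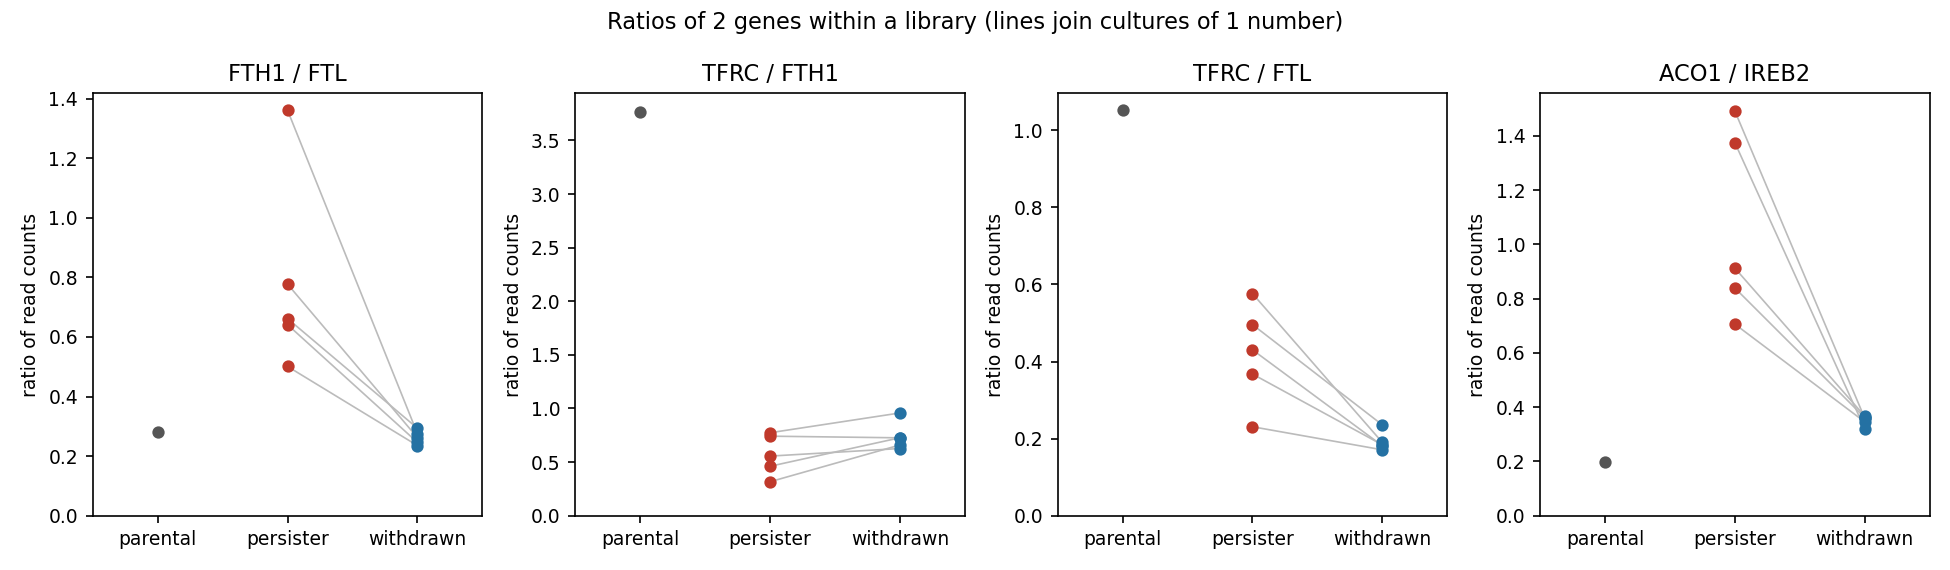
Ratios of read counts of 2 genes within each library, with lines joining persister and withdrawn cultures of the same number. The FTH1 to FTL ratio is back in the parental range after withdrawal (0.235 to 0.293 beside 0.279), whereas the TFRC to FTH1 ratio is at most 0.958 there beside 3.77 in the parental library.

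HMOX1 encodes heme oxygenase 1, which breaks down heme and frees its iron (chromosome 22, 35380361 to 35394214). It stood at 6.24 CPM in the parental library, at 258, 283, 202, 117 and 194 CPM in persister cultures 1 to 5, and at 6.27, 6.02, 7.07, 8.22 and 5.81 CPM in withdrawn cultures. Persister culture 4 was the lowest of its group and its withdrawn partner the highest of its own. The rise was 33.8-fold (log2 fold change 5.08 ± 0.51, adjusted p = 4.83e-05), the widest of the 10 members, and the 1187th highest among the 23693 genes tested. The fall after withdrawal was 31.6-fold (-4.98 ± 0.24, adjusted p = 7.42e-08), and withdrawn cells differed from parental cells by 0.10 ± 0.36 (adjusted p = 0.934).

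NCOA4 encodes the receptor that delivers ferritin to autophagy, which frees its iron (chromosome 10, 46005088 to 46030714). It stood at 175 CPM in parental cells, 193, 199, 205, 241 and 260.4 CPM in persister cultures and 189.7 to 195 CPM in withdrawn cultures. Its persister and withdrawn libraries overlapped, and it passed no test: 0.33 ± 0.16 (adjusted p = 0.144) for persister against parental, -0.19 ± 0.09 (0.107) after withdrawal and 0.14 ± 0.16 (0.727) for withdrawn against parental cells. Cultures 4 and 5 fell by 0.31 and 0.46 log2 CPM on withdrawal, whereas the other 3 moved by less than 0.1. Of the 10 members NCOA4 varied least among withdrawn libraries, with an SD of 0.016 on the log2 CPM scale.

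SLC40A1 encodes ferroportin, the only known iron exporter of human cells (chromosome 2, 189560579 to 189583758). It was close to silent throughout, with 14 counts in the parental library, 3, 6, 79, 10 and 80 counts in persister cultures 1 to 5, and 2, 15, 14, 1 and 12 counts in withdrawn cultures. Cultures 3 and 5 reached 1.20 and 1.09 CPM and the other persister cultures 0.0461 to 0.122 CPM, so the persister group holds libraries above and below the parental 0.214 CPM. None of the differences passed the test, with log2 fold changes of 1.26 ± 1.71 for persister against parental (adjusted p = 0.601) and -1.93 ± 0.95 after withdrawal (adjusted p = 0.111). A difference of several fold was not detectable at these counts and this spread.

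ACO1 encodes IRP1, which is an aconitase when it holds an iron-sulfur cluster and binds RNA hairpins when it does not (chromosome 9, 32384603 to 32454769). It stood at 44.5 CPM in parental cells, 126, 89.5, 85.8, 89.97 and 110.1 CPM in persister cultures and 56.6, 57.1, 54.5, 54.8 and 50.6 CPM in withdrawn cultures. It rose 2.25-fold (log2 fold change 1.17 ± 0.21, adjusted p = 0.00163) and fell 1.83-fold after withdrawal (-0.87 ± 0.11, adjusted p = 4.76e-05). IREB2 encodes IRP2, which binds the same hairpins and is degraded when iron is plentiful (chromosome 15, 78437431 to 78501456). It went the opposite way: 224 CPM in parental cells, 84.2, 107, 94.0, 127 and 80.1 CPM in persister cultures, and 158, 158, 149, 159 and 158 CPM in withdrawn cultures. IREB2 fell 2.27-fold (-1.19 ± 0.19, adjusted p = 8.45e-04) and rose 1.59-fold after withdrawal (0.67 ± 0.12, adjusted p = 6.04e-04).

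For both regulators all 5 withdrawn libraries lay between the persister libraries and the parental one. The distance left to the parental value did not pass the test, at 0.30 ± 0.19 for ACO1 (adjusted p = 0.500) and -0.52 ± 0.20 for IREB2 (adjusted p = 0.236). In a fit of withdrawn and parental libraries alone both passed, with log2 fold changes of 0.28 (adjusted p = 0.0135) and -0.53 (adjusted p = 5.85e-05). Without persister cultures 1 and 5 IREB2 passed too (-0.52, adjusted p = 0.0333). Within a library the count of ACO1 was 0.199 times that of IREB2 in parental cells, 0.706 to 1.49 times in persister cells and 0.320 to 0.366 times in withdrawn cells, with no overlap between the groups.

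Persister cultures 1 and 5, the lowest in the cell cycle list, were also the highest in FTL and ACO1 and the lowest in IREB2. Without them the rises of FTL and ACO1 were 1.08 ± 0.11 and 1.00 ± 0.11 on the log2 scale and the fall of IREB2 was -1.03 ± 0.13. In that fit 6 members were still called against parental cells and 8 after withdrawal. Of 23075 genes tested in it, 4628 were called higher and 4337 lower against parental cells. After withdrawal 6021 were called higher and 6625 lower. TFRC did not follow the order of cultures seen for FTL, ACO1 and IREB2: culture 1 was near the top of its group and culture 5 at the bottom. The groups of libraries did not overlap for 8 of 10 members between persister and parental cells, 8 between withdrawn and persister cells and 6 between withdrawn and parental cells. Over all genes tested the shares were 63.6%, 40.6% and 63.8%, which are high for the comparisons with 1 parental library.

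Per kilobase of annotated exon, FTL was the member with the highest level in each group, at 551 CPM per kb in parental, 1322 in persister and 751 in withdrawn cells. FTH1 followed in persister and withdrawn cells, at 454 and 85.5 CPM per kb. In the parental library FTH1 and TFRC stood close together, at 66.5 and 64.5 CPM per kb, and in persister cells TFRC was at 59.6 CPM per kb. The FTH1 values leave out its pseudogenes, which held 41.1% of heavy-chain counts in the parental library. Lengths are those of all annotated exons of a gene, not of an expressed transcript. HMOX1 went from 2.59 CPM per kb in parental cells to 87.7 in persister cells, and in withdrawn cells it was at 2.78. In persister libraries HMOX1 ran from 48.8 to 118, TFRC from 42.3 to 72.3 and NCOA4 from 47.4 to 63.8 CPM per kb, so the ranges of these 3 overlapped. SLC40A1 was lowest throughout, at 0.0314 to 0.119 CPM per kb by group.

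Around these 10 genes, 91 others of iron, heme and iron-sulfur metabolism were listed, of which 86 were tested. In persister against parental cells 29 rose and 9 fell, which is 44.2% of those tested beside 31.2% of all genes. In withdrawn against persister cells 12 rose and 42 fell, 62.8% beside 52.5% of all genes. The share called in either direction was thus not far from the background there. Of all genes 16.1% rose and 15.1% fell in persister cells, and 24.5% rose and 28% fell after withdrawal. Calls in the list were thus less even in direction than over all genes. Against the parental library 1 listed gene differed in withdrawn cells. The medians of the list in these comparisons were 0.43, -0.28 and 0.05 log2 units, beside 0.09, -0.03 and 0.05 over all genes. By role, 8 of 15 heme genes rose and 0 fell in persister cells, as did 9 and 2 of 22 genes of mitochondrial iron and iron-sulfur clusters, 6 and 2 of 18 uptake and reduction genes, 4 and 1 of 14 regulators, 1 and 2 of 8 export genes, and 1 and 2 of 9 storage and chaperone genes. After withdrawal 0 heme genes rose and 10 fell, as did 3 and 14 mitochondrial genes, 3 and 9 uptake and reduction genes, 2 and 4 regulators, 2 and 3 export genes, and 2 and 2 storage and chaperone genes.

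EPAS1, the hypoxia-inducible factor HIF-2α, rose 30.4-fold from 3.26 to 98.9 ± 59.8 CPM (adjusted p = 0.00108) and was at 9.83 ± 1.48 CPM in withdrawn cells. BLVRB, a biliverdin reductase acting downstream of heme oxygenase, rose 5.76-fold from 5.51 to 31.7 ± 6.46 CPM. It fell to 16.1 ± 0.499 CPM after withdrawal and was then the listed gene still above parental cells (2.93-fold, adjusted p = 0.0352). That last call ended without persister culture 3 (adjusted p = 0.0531), without any 1 withdrawn library (up to 0.0852) and with limma-voom (0.0789). FDXR, the ferredoxin reductase of iron-sulfur cluster synthesis and a p53 target, rose 5.21-fold from 7.83 to 40.8 ± 13.8 CPM, and the porphyrin exporter ABCG2 rose 6.43-fold from 3.35 to 21.6 ± 6.68 CPM. SLC39A8, a zinc and iron importer, fell 3.39-fold after withdrawal, from 87.4 ± 25.6 to 25.8 ± 0.683 CPM.

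Among the listed genes that fell, SCARA5, a ferritin receptor, went from 31.5 to 0.654 ± 0.376 CPM in persister cells (adjusted p = 6.94e-06) and was at 32.9 ± 5.11 CPM after withdrawal. BMP6, the ligand that induces hepcidin in the liver, went from 9.01 to 0.912 ± 0.292 CPM and was at 13.8 ± 0.989 CPM after withdrawal. BACH1, the repressor named above, was 2.23-fold lower in persister than in parental cells (27.2 ± 6.58 against 60.8 CPM, adjusted p = 0.00287). It rose 2.78-fold to 75.6 ± 3.95 CPM on withdrawal. Whether BACH1 had a part in the changes of HMOX1 and the ferritin genes was not tested. The mitochondrial transporter ABCB10 fell 2.24-fold from 58.3 to 26.0 ± 6.36 CPM. In a fit of persister and parental libraries alone BACH1 and ABCB10 just missed the threshold (adjusted p = 0.0505 and 0.0551). TF, which encodes transferrin itself, was at 3.64 ± 2.43 CPM in persister and 9.80 ± 2.06 CPM in withdrawn cells (adjusted p = 0.00789), with libraries that overlapped. FBXL5, part of the ligase that degrades IRP2, was looked up after the values were seen and passed no test, at 59.7, 67.3 ± 10.5 and 78.6 ± 2.42 CPM in parental, persister and withdrawn cells.

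Of 31 known NRF2 targets, which include FTH1, FTL and HMOX1, 14 rose and 1 fell in persister against parental cells, and 1 rose and 18 fell after withdrawal. These are 48.4% and 61.3% of the list, beside 31.2% and 52.5% of all genes. The share called in either direction after withdrawal was thus near the background. Of all genes 16.1% rose and 15.1% fell in persister cells, and 24.5% rose and 28% fell after withdrawal. Calls in the list were thus less even in direction than over all genes. Without the 3 members the list gave 11 and 1 of 28, and 1 and 15, or 42.9% and 57.1%, with medians of 0.54 and -0.46 log2 units. The transporter ABCC3 rose 24.9-fold from 3.96 to 98.7 ± 42.5 CPM, the aldo-keto reductase AKR1C3 9.46-fold from 4.21 to 39.8 ± 17.0 CPM, OSGIN1 8.02-fold and the epoxide hydrolase EPHX1 7.59-fold from 21.4 to 162 ± 52.1 CPM. GCLC, the catalytic subunit of the first enzyme of glutathione synthesis, fell 1.39-fold (adjusted p = 0.0160), a call that ended without the filter on low counts (0.0509) and with these 2 groups alone (0.150). After withdrawal ABCC3, EPHX1, OSGIN1 and TRIM16L fell by 12.2-fold, 5.65-fold, 3.98-fold and 2.81-fold, and ME1, the malic enzyme, rose 1.42-fold. NQO1, often taken as the standard NRF2 target, was looked up after the values were seen. It stood at 590.4, 506 ± 117 and 646 ± 37.6 CPM in parental, persister and withdrawn cells and passed no test (adjusted p = 0.511 for persister against parental). Of the 31 targets 16 did not pass the test in that comparison. Whether NRF2 had a part in any of these changes was not tested.

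**Figure D5:**
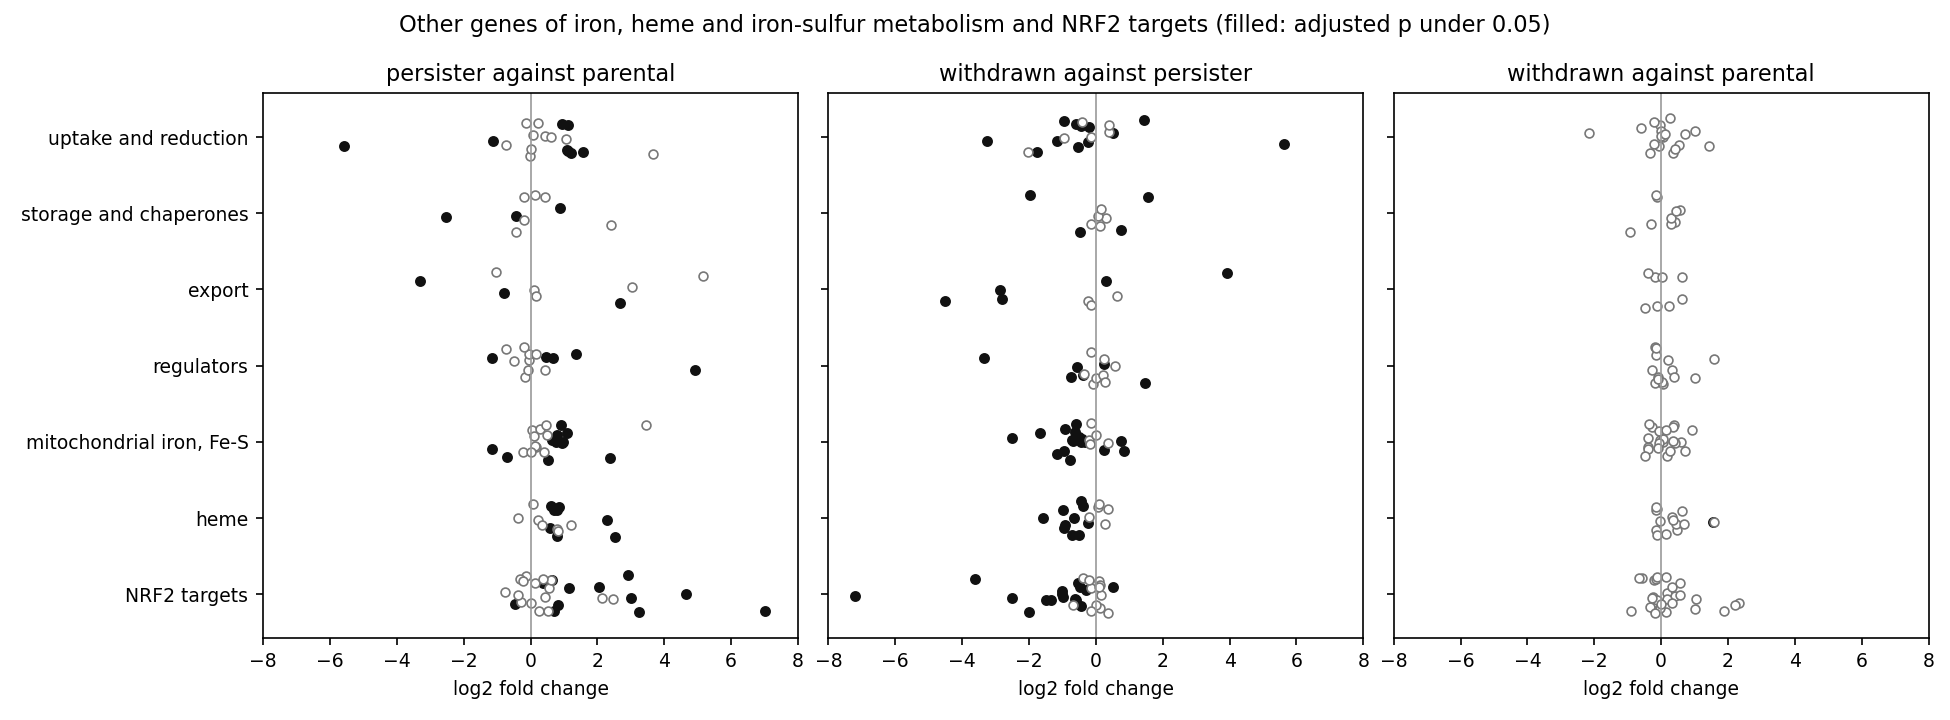
Log2 fold changes of the other listed genes by role, 1 point per gene, with filled points for adjusted p under 0.05 (edgeR). In persister against parental cells 8 of 15 heme genes are filled, all to the right, while 16.1% of all genes were called higher. In withdrawn against parental cells 1 point is filled, BLVRB at 1.55.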

How the data were processed

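The authors deposited read counts per gene, not normalized, for 11 libraries, with replicates not pooled. Per the labels' protocols the libraries were stranded poly(A) libraries, and per the submitters' processing notes bcl2fastq, HISAT2 and HTSeq were used with hg38. Their versions, the strand setting and the annotation used are not given here. All 58721 gene IDs matched GENCODE 29, the source of symbols, GRCh38 coordinates and transcript sequences. Genes with too few counts were removed with filterByExpr (minimum count 10, minimum total 15), libraries were scaled by TMM, and 3 groups were fitted over all 11 libraries with robust quasi-likelihood in edgeR 4.0.16 (R 4.3.3), leaving 8 residual degrees of freedom. Alternatives used DESeq2 1.42.0 and limma 3.58.1. A run on simulated data checked the withdrawn against persister comparison only. Comparisons with the single parental library were not checked in this way. Log2 CPM used a prior count of 2. Named list genes were the 4 largest called rises and falls per list and comparison whose mean log2 CPM reached 1; for likeness, 2 genes per member. The members and lists were chosen with earlier results of these data known. Withdrawn cultures are named after persister cultures, and the pairs used here rest on these names. Deviations of same-numbered libraries correlated only weakly across genes, at 0.048 to 0.091, highest for the own number in 5 of 5. The main fit did not use the pairs.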

Additional observations from a re-analysis of the deposited data

Results flagged for a closer look

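Among the persister and withdrawn sets of 5 libraries for the members and the named list genes, 54 in all, 4 held a value far from the other 4, which chance gives in about 1 of 20 sets. FTH1 stood at 1767 CPM in persister culture 1, and the next highest persister library was at 769 CPM. The FTH1 pseudogenes summed to 1344 CPM in the same library and to 497 to 655 CPM in the other persister libraries, while FTL was not highest there. Counts on these near-identical copies may hold FTH1 reads, so they are not a separate check of the high value. IREB2 stood at 149 CPM in withdrawn culture 3, below 158 CPM in the next lowest withdrawn library, in a group whose highest value was 1.07 times its lowest.
EPAS1 stood at 203 CPM in persister culture 5, with the next highest at 91.4 CPM, and AKR1C3 at 69.0 CPM in the same culture, with the next at 39.1 CPM.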

How the results depend on the processing

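Over all alternatives run, no member changed direction in any comparison, and of 556 member values 551 kept their side of the threshold and 5 newly passed it. Of 499 values of named list genes 488 kept their side and 11 no longer passed, none with a change of sign. The number of members called stayed at 6 for persister against parental and 8 for withdrawn against persister cells, also with the replicate block (8 members, 47 of the wider list, 20 NRF2 targets and 10630 genes), which changed no call of a member. No replicate block was possible with 1 parental library. With only the groups compared, persister against parental gave 10 genes of the wider list, 9 NRF2 targets and 2569 genes in all (7391 with all libraries), and withdrawn against parental gave 4 members, 40, 13 and 6593 (1, 1, 0 and 102 with all libraries). Withdrawn against parental further gave 3, 2 and 1184 with DESeq2 for the wider list, NRF2 targets and all genes, 0 of the wider list with limma-voom, and 155 genes with at least 10 counts in 5 libraries. Without persister cultures 1 and 5, chosen after seeing the data, it gave 3 members, 8, 6 and 2086. With 1 library left out in turn it gave 0 to 3 of the wider list, 0 to 1 NRF2 targets and 23 to 558 genes. The highest count came without persister culture 5 and the lowest without withdrawn culture 5. The cause was not tested. The single parental library and the low SLC40A1 counts limit the precision of these comparisons.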

Other observations

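The genes whose level followed each member most closely over the 11 libraries were sought among 9788 protein-coding genes (9789 for SLC40A1) whose mean log2 CPM reached 3, by Pearson's r. The points fall into 3 groups, so r reflects the groups as much as single libraries. For HMOX1 they were AP2M1 and CYB561 (both r = 0.997), for FTH1 SNF8 and ITPA (0.993 and 0.991) and for FTL C6orf47 and HEXA (both 0.992). HEXA encodes a lysosomal hydrolase and SNF8 a part of the endosomal sorting machinery. Functions of the other genes named here are left out, and a link of any of them to iron handling was not tested. For STEAP3 they were SH3BP4 (0.995) and PRAG1 (0.994), for ACO1 NDUFA6 (0.995) and MGST3 (0.993), and for IREB2 STRN and GABPA (both 0.994). TFRC was followed by PCNX3 (0.986) and ZSCAN5A (0.984), SLC11A2 by NOMO2 (0.974) and ABCF3 (0.959), and NCOA4 by TBCEL and RDX (both 0.947). The near-silent SLC40A1 had no gene above 0.829 (ZNF419).

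TFRC stood 292nd from the lowest of 23693 genes by log2 fold change in withdrawn against parental cells, and 9937th from the lowest in persister against parental cells. NRF2's own gene NFE2L2, looked up after the values were seen, stood at 114, 98.8 ± 11.6 and 117 ± 3.46 CPM in parental, persister and withdrawn cells, and KEAP1, its inhibitor, at 56.5, 89.9 ± 10.8 and 53.3 ± 1.25 CPM. NFE2L2 did not pass the test in persister against parental cells (adjusted p = 0.311, edgeR). It rose 1.19-fold after withdrawal (adjusted p = 0.0340, edgeR), with no overlap of libraries. KEAP1 rose 1.59-fold in persister cells (adjusted p = 0.00808, edgeR) and fell 1.69-fold after withdrawal (adjusted p = 2.53e-05). These are mRNA levels, and whether NRF2 activity changed was not tested.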
